A study of Mus musculus with 4 samples.

Results

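The genes described here make, break down or answer to retinoic acid, and their transcripts were measured in mouse otocysts labelled as conditional double mutants of the T-box transcription factors Tbx2 and Tbx3. The otocyst is the epithelial vesicle from which the inner ear forms. All probes of the arrays whose gene name was one of 10 chosen names were taken, whatever their values. The names themselves were chosen with results of these arrays known. This gave 11 of 39429 probes, 1 for each gene and 2 for Rarb. All 11 were well above background in both RNAs on all 4 arrays, so every gene was tested. They form 3 groups by role: 4 genes of synthesis (Rdh10, Aldh1a1, Aldh1a2 and Aldh1a3), 3 of breakdown (Cyp26a1, Cyp26b1 and Cyp26c1) and 3 of response or binding (Rarb, Dhrs3 and Crabp1).

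Otocysts were dissected at E10.5 from embryos of the NMRI strain. Mutants (Tbx2/3cDKO) carried Pax2-cre and were labelled Tbx2(fl/fl) as well as Tbx3(fl/fl), so deletion was limited to cells in which the Pax2 sequences drive cre, and neighbouring tissue without cre keeps both genes. Controls are labelled Tbx2(fl/?);Tbx3(fl/?), with no cre in the label and the second copy of each gene unstated. Each of 4 arrays carried 1 mutant and 1 control RNA in different dyes, both female on arrays 1 and 2 and both male on arrays 3 and 4. The mutant RNA was red on arrays 1 and 3 and green on arrays 2 and 4. The labels do not say whether embryos were pooled or whether the RNAs came from separate litters. The limma p-values set each mean ratio against the spread between these arrays that is left after a term for dye. For each gene limma moderates that spread with the spread of all genes tested (4.6 prior against 2 residual degrees of freedom). A gene's own SD over arrays therefore does not give its p-value. How much of that spread is technical and how much lies between litters is not known.

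Retinoic acid is made from vitamin A in a pair of steps. Rdh10 oxidises retinol to retinaldehyde, and the Aldh1a enzymes oxidise retinaldehyde to retinoic acid. Dhrs3 works against the first step by turning retinaldehyde back into retinol, and the Cyp26 enzymes hydroxylate retinoic acid and so clear it. Retinoic acid binds nuclear receptors such as Rarb, which act on DNA as partners of Rxr receptors, and Crabp1 binds it in the cytoplasm. In the early ear, tissue outside and inside the otocyst makes and degrades retinoic acid, and the signal is known for its part in patterning the otocyst along its anterior-posterior axis.

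A pair of members, Rarb and Cyp26a1, hold in their promoters the letters of a retinoic acid response element, and these stretches are shown because they mark the genes best known as direct targets. RefSeq windows (build GRCm38.p6) from 250 bases before to 50 bases after a gene start were found for 8 of the 10 genes, in 11 windows; Aldh1a3 and Rdh10 were not matched. The pattern searched on both strands was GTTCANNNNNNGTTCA, a direct repeat with any letters between the copies. It occurs in 25 of 32851 windows of this length (0.0761%). In capitals are the 16 letters that match. The Rarb stretch lies at chr14:16575506-16575535 on the strand of the gene, with the match ending 37 bases before the start. The Cyp26a1 stretch lies at chr19:37697769-37697798 and is printed from the strand opposite to the gene, with the match ending 17 bases before the start.
Rarb: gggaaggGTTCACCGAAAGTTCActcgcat
Cyp26a1: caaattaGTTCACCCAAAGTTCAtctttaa

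The 250 bases before the start of Aldh1a2, the gene with the largest change, lie at chr9:71215539-71215788 on the plus strand (GRCm38.p6) and held no match to this pattern. They also held no match on either strand to GGTGTGA, a half-site bound by T-box factors, which occurs in 3.98% of the windows. The only member window with that half-site was one of Aldh1a1, with the match ending 186 bases before the start. The letters G and C make up 77.6% of the Aldh1a2 stretch, against a median of 52.4% over all windows. It is shown without capitals, since no letters matched.
Aldh1a2: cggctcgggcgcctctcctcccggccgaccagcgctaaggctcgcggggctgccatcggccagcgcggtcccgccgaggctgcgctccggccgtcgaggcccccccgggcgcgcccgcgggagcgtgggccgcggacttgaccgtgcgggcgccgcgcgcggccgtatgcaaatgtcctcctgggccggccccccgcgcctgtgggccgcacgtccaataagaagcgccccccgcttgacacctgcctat

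Cyp26a1 and Cyp26c1 are related genes and neighbours on chromosome 19, with 0 protein-coding genes between them in the RefSeq table. Their probes are shown for this reason. The Cyp26a1 probe lies at chr19:37775566-37775625 and the Cyp26c1 probe at chr19:37767436-37767495 (mm9, plus strand), with 8070 bases between them. Each has 1 of 3 reading frames without a stop codon. The longest run of letters they share is 5, and the longest between any of the 3 Cyp26 probes is 8, of 60 bases. The 3 Aldh1a probes share at most 6 letters in a row. The probes were compared only with each other and not with the transcripts of the related genes. Whether a probe also reads a relative was therefore not tested.
Cyp26a1: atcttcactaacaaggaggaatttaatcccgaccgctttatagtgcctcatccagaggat
Cyp26c1: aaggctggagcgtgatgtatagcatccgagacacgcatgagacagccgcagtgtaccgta

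The share of spots well above background ran from 58.4% to 63.2% over the channels, and precision is limited by the number of arrays, 4. For Tbx3, one of the targeted genes, mutant over control was -3.43 ± 0.16 in log2 (SD, n = 4 arrays). The probe for Tbx2 had 0.06 ± 0.23; where it lies against the deleted part was not analysed here, so it does not check the deletion. In the mutant RNA of array 4, labelled male, the female transcript Xist read 7.57 and 7.74 in log2 by its probes, where the control RNA beside it read 6.62 and 6.47. The female RNAs of arrays 1 and 2 had Xist at 9.36 to 9.69. In both RNAs of array 2, labelled female, the Y-linked Eif2s3y was at 6.82 and 7.02. It was at 6.0 and 6.2 on array 1, also female, and at 10.4 to 11.0 in the male RNAs. Another Y-linked gene, Ddx3y, was at 6.26 and 6.14 on array 2 and at 6.12 and 6.11 on array 1. Values without array 4 are given below where they differ in call.

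Over all 18416 genes tested, limma called 23.6% at an adjusted p under 0.05, 13.5% higher and 10.1% lower in the mutant, and the marker lists are read against these shares with the probe used for each gene. Of 12 otic epithelium genes on a marker list, all were tested, 7 fell and 1 rose, with a median log2 ratio of -0.41. Pax2, a defining gene of the otic epithelium, was dim with the probe used: its mean log2 level was 7.17 for control and 7.07 for mutant RNA. Genes of other cells also moved: 9 of 12 of periotic mesenchyme rose (median 0.41), as did 10 of 12 of neuroblasts and neurons (1.07), 10 of 10 of endothelium (0.66), 10 of 10 of red blood cells (1.12) and 6 of 9 of macrophages (0.37). Of the 6 hindbrain genes tested, 1 rose and 2 fell (median -0.04), and Pax6, Pax7 and Olig3 were above background in no channel. Of the 3 neural crest genes tested, 3 fell (median -0.50), and of 5 surface ectoderm genes 1 rose (median 0.00); another of these, Trp63, read -0.07 by its brighter probe and 0.85 by its dimmer one (limma adjusted p = 0.000686). The mean log2 level of the mesenchyme list ran from 11.6 to 11.7 in the mutant and from 11.1 to 11.2 in the control RNAs. In dissected tissue, fewer cells of a type and less RNA per cell cannot be told apart, and the part of these shifts in the results below was not tested.

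The comparison asks which of the 10 genes differ between mutant and control otocysts. In synthesis, Aldh1a2 fell 8.85-fold and Rdh10 1.43-fold, while Aldh1a3 rose 1.44-fold and Aldh1a1 1.23-fold. In breakdown, Cyp26c1 fell 2.22-fold, Cyp26b1 rose 2.06-fold and Cyp26a1 did not pass the test. Among the genes of response and binding, Dhrs3 rose 1.20-fold, and Rarb and Crabp1 did not pass with the probes used. By limma with an adjusted p under 0.05 over all 18416 genes tested, 7 of the 10 genes were called, 4 higher and 3 lower, so the genes did not move in one direction.

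Over all genes tested, 23.6% were called, 13.5% higher and 10.1% lower. The median log2 ratio of the 10 genes was -0.09 and that of all genes 0.00; the median size, without sign, was 0.45 and 0.09. In 6 of the 10 genes the levels of the 4 mutant RNAs lay wholly above or below those of the 4 control RNAs, which held for 23.3% of genes. A log2 ratio past 1 in size was found in 3 of the 10 and in 1.56% of all genes. The 10 names were chosen with results of these arrays known.

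**Figure D1:**
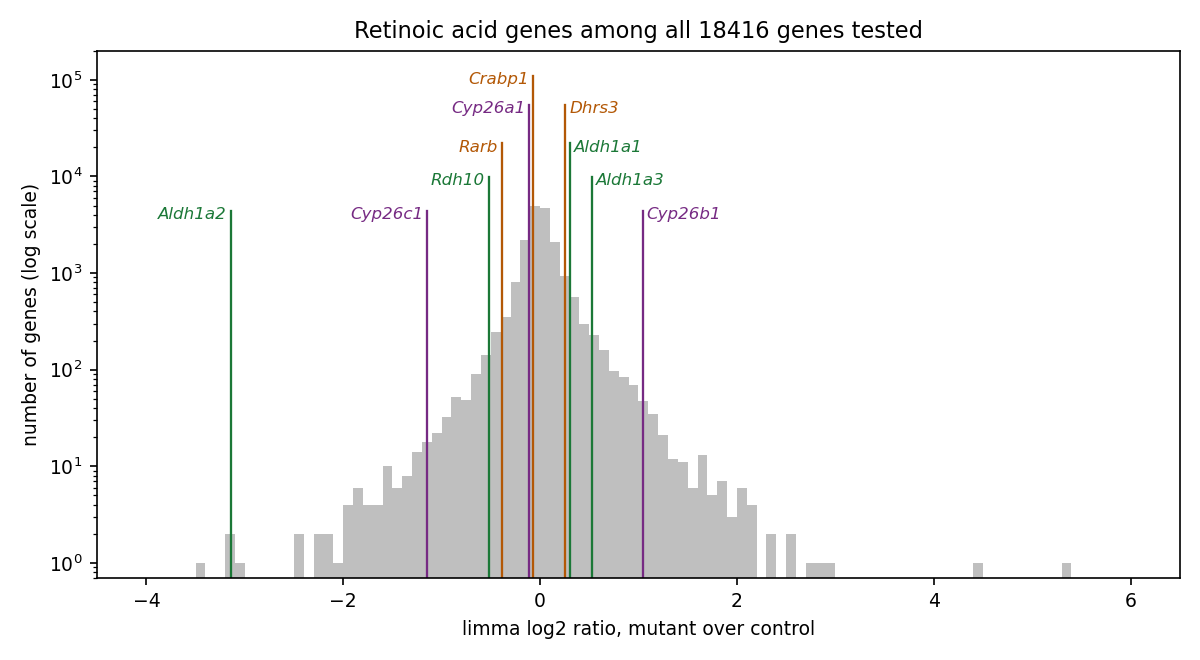
Histogram of the limma log2 ratio of mutant over control for all 18416 genes tested (x axis; y axis, number of genes on a log scale), with the 10 retinoic acid genes as lines coloured by role (green synthesis, purple breakdown, orange response or binding). Aldh1a2 lies at -3.15 in the far left tail, Cyp26c1 at -1.15 and Cyp26b1 at 1.04, while the other genes lie between -0.52 and 0.53.

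Aldh1a2, which makes most of the retinoic acid of the early embryo, had the largest change of the 10. Its log2 level, on the scale left after loess and Aquantile normalization, was 11.71, 11.89, 11.82 and 11.76 in the control RNAs of arrays 1 to 4, and 8.65, 8.43, 8.20 and 9.32 in the mutant RNAs. All mutant RNAs lay at least 2 units below all control RNAs, and the mutant RNA of array 4 was the highest of the mutants. The control RNAs were close together (SD 0.08) and the mutant RNAs spread more widely (SD 0.48). The ratios were -3.06, -3.46, -3.62 and -2.45, which gave a limma log2 ratio of -3.15 with an SE of 0.17, a 95% interval from -3.54 to -2.75 and an adjusted p of 6.11e-05. Among 18416 genes only 1, Tbx3 itself, had a lower log2 ratio, and 0.0163% of genes had a larger change in size. Without array 4 the log2 ratio was -3.40, and without array 2 it was -2.89. The residual Aldh1a2 signal was well above background on every array. The probe lies at chr9:71143931-71143990 on the plus strand (mm9).

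Aldh1a3, which oxidises retinaldehyde like Aldh1a2, went the other way. Its log2 level was 8.87, 8.96, 8.85 and 9.06 in the control RNAs and 9.25, 9.32, 9.92 and 9.35 in the mutant RNAs. The groups did not overlap, and the mutant RNA of array 3 stood well above the other mutants. The log2 ratio was 0.53 ± 0.36 (SD, n = 4 arrays), with a limma adjusted p of 0.0128, and 1.07 on array 3 against 0.30 to 0.38 on the other arrays. Without array 3 it was 0.36, with a limma adjusted p of 0.0237. The rise of Aldh1a3 and the fall of Aldh1a2 were read on the same arrays. The per-array difference of their log2 ratios, Aldh1a2 minus Aldh1a3, ran from -4.68 to -2.74 and had 1 sign on 4 of 4 arrays. An exact two-sided sign-flip test over these arrays gave p = 0.125, the smallest it can give. It always gives this value when all arrays share a sign, so it adds nothing to the signs. The pair was chosen with results of these arrays known.

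Aldh1a1, the third enzyme of this kind, rose by less. Its log2 level was 11.7 to 11.8 in the control RNAs and 11.9 to 12.1 in the mutant RNAs, with no overlap, the lowest mutant RNA being that of array 1. Mutant over control was positive on 4 of 4 arrays, with a log2 mean of 0.30 ± 0.09 (SD; limma adjusted p = 0.00914). Without array 3 it was 0.25 and missed the threshold (limma adjusted p = 0.074).

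Rdh10, the dehydrogenase of the first step, fell on every array by nearly the same amount. Its log2 level was 11.10, 11.02, 11.24 and 11.14 in the control RNAs and 10.63, 10.46, 10.65 and 10.69 in the mutant RNAs. The lowest control RNA lay above the highest mutant RNA. The ratios of -0.47, -0.57, -0.60 and -0.45 had an SD of 0.07, the smallest of the 10 genes, and gave a limma log2 ratio of -0.52 with an SE of 0.05 and an adjusted p of 0.00075. Leaving out each array moved this value between -0.55 and -0.49. Rdh10 ranked 441 from the lowest of the 18416 genes.

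**Figure D2:**
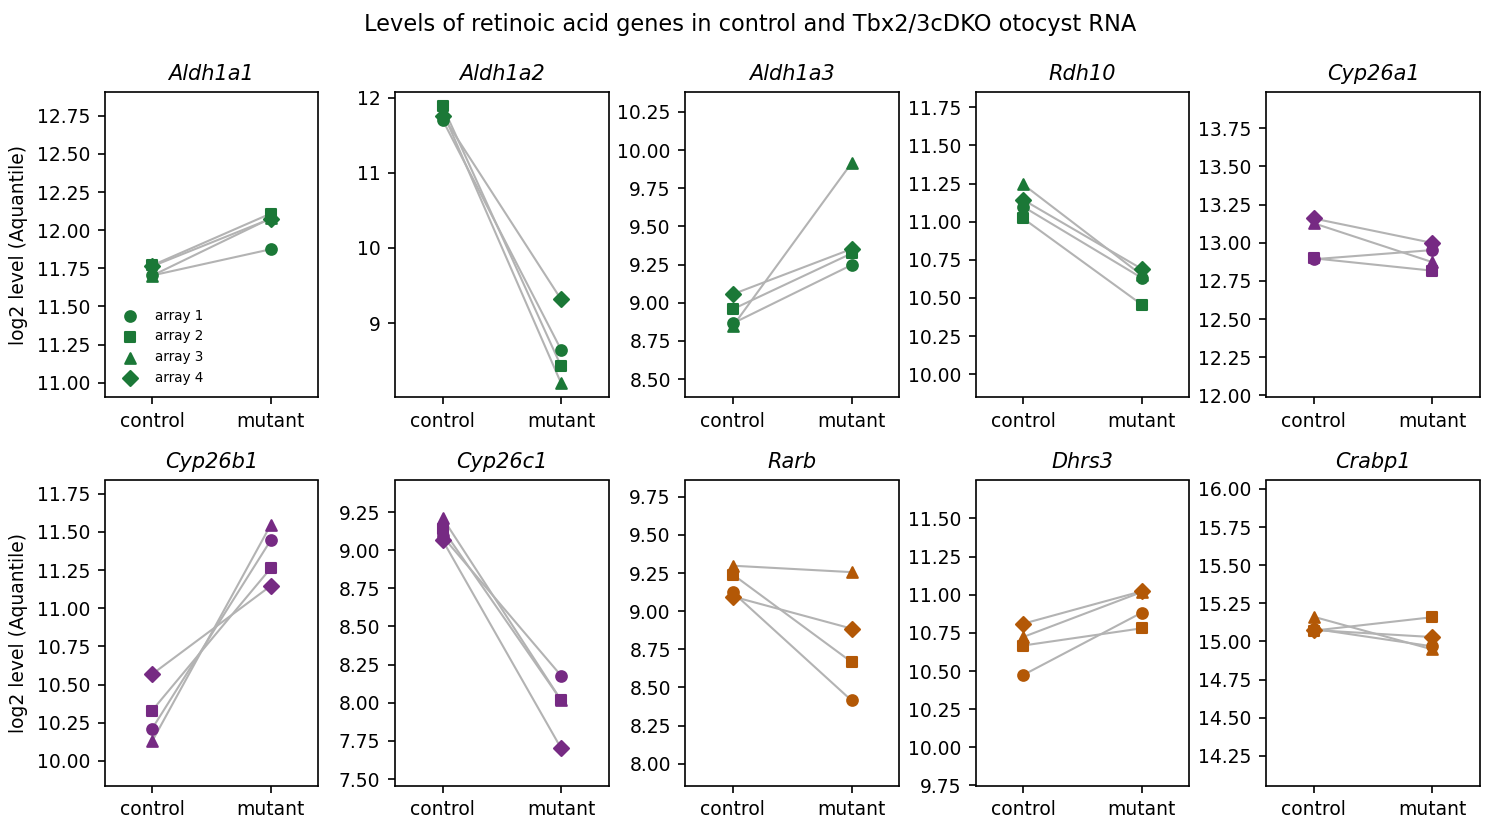
Log2 level of each of the 10 genes (y axis, after loess and Aquantile normalization, a separate scale for each gene) in the control and mutant RNA of each array (x axis), with a line joining the RNAs that shared an array and a marker for each array. Aldh1a2 drops from between 11.7 and 11.9 to between 8.2 and 9.3, Cyp26b1 and Cyp26c1 move in opposite directions, and the mutant and control values of Crabp1 and Cyp26a1 overlap.

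The 3 breakdown enzymes, which clear retinoic acid from tissues that must be kept free of it, did 3 different things. For Cyp26b1 the log2 level was 10.21, 10.33, 10.13 and 10.57 in the control RNAs and 11.45, 11.26, 11.55 and 11.15 in the mutant RNAs. All mutant RNAs were above all control RNAs, and array 4 held the lowest mutant and the highest control. Its ratios of 1.24, 0.93, 1.42 and 0.58 were larger on both arrays with the mutant RNA in red. With a dye term in the fit, the limma log2 ratio was 1.04 with an SE of 0.07. Its 95% interval ran from 0.87 to 1.22 and its limma adjusted p was 0.000167. Without the dye term the log2 ratio was also 1.04 (limma adjusted p = 0.000241). Whether dye or another difference between these arrays gave the pattern was not tested. Cyp26b1 ranked 164 from the highest of all genes.

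Cyp26c1 fell. Its log2 level was 9.09, 9.14, 9.21 and 9.07 in the control RNAs and 8.18, 8.02, 8.02 and 7.70 in the mutant RNAs. The control RNAs were tightly grouped, and every mutant RNA was lower by close to 1 unit or more. The ratios were -0.91, -1.12, -1.20 and -1.36, which gave a limma log2 ratio of -1.15 with an SE of 0.07 and an adjusted p of 9.64e-05. In the authors' deposited table, where most values match the scanner software's ratios, the fall was larger, with log2 ratios from -1.89 to -1.22. Between Cyp26b1 and Cyp26c1 the log2 ratio differed by 1.94 to 2.61 on each array, with a mean of 2.19 ± 0.29 (SD, n = 4 arrays). The exact two-sided sign-flip test gave p = 0.125, the smallest possible, as it must when all arrays share a sign. This pair, too, was chosen with results of these arrays known.

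Cyp26a1, which carries the response element printed above and lies beside Cyp26c1, showed no change past the test. Its log2 level ran from 12.9 to 13.2 in the control RNAs and from 12.8 to 13.0 in the mutant RNAs, and the groups overlapped. The log2 ratio was -0.11 ± 0.13 (SD, n = 4 arrays; limma adjusted p = 0.292), with a 95% interval from -0.27 to 0.05. The interval leaves out changes the size of those of either relative. It was positive on array 1, at 0.06, and negative on the other arrays.

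**Figure D3:**
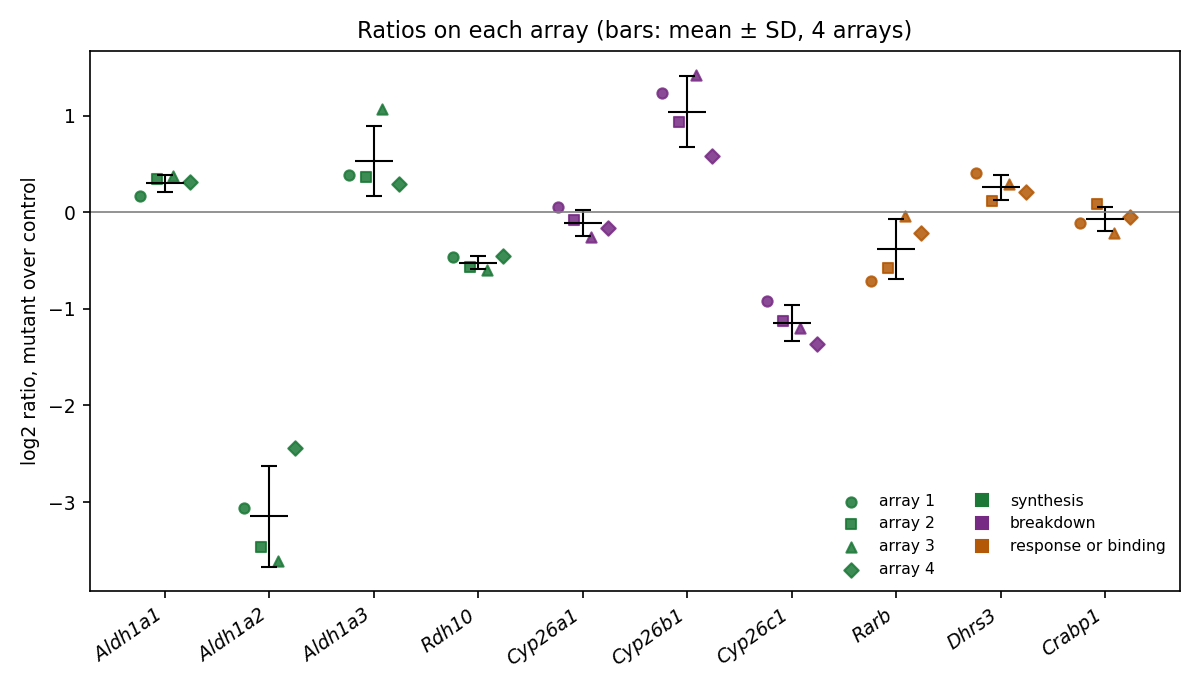
Log2 ratio of mutant over control (y axis) of the 10 genes on each of 4 arrays (markers, coloured by role), with the mean and SD over arrays as black bars. The ratios of Cyp26a1 and Crabp1 lie on both sides of 0, and those of each other gene keep the same sign on all arrays. How often this holds over all genes tested was not counted.

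Rarb, the retinoic acid receptor gene that is itself switched on by retinoic acid, was read by 2 probes that lie 1221 bases apart. With the brighter probe, its log2 level was 9.12, 9.24, 9.30 and 9.10 in the control RNAs and 8.42, 8.67, 9.26 and 8.89 in the mutant RNAs. The mutant RNA of array 3 lay among the controls. The ratios were -0.71, -0.57, -0.04 and -0.21, with a limma log2 ratio of -0.38, an SE of 0.11 and an adjusted p of 0.0551, which misses the threshold. With the dimmer probe the ratios were -0.55, -0.47, -0.29 and -0.55 and the groups did not overlap. In a limma fit of all 23186 kept probes it had a log2 ratio of -0.46 with an adjusted p of 0.00204, so both probes had negative ratios on 4 of 4 arrays and only the dimmer one passed. The mean of both probes gave -0.42 and a limma adjusted p of 0.00935, and without array 4 the brighter probe passed (log2 ratio -0.47, limma adjusted p = 0.0189).

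The Rarb ratio of the brighter probe was lower on the female arrays, with a mean of -0.64, than on the male arrays, with -0.13. The difference, female minus male, was -0.51 with an SE of 0.11, and its limma adjusted p over all genes was 0.135 (unadjusted 0.00161). For the other 9 genes the adjusted p of this difference lay between 0.239 and 0.982. A sex and any other difference between these pairs of arrays cannot be told apart.

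Dhrs3, the reductase that returns retinaldehyde to retinol, rose slightly. Its log2 level ran from 10.47 to 10.81 in the control RNAs and from 10.78 to 11.02 in the mutant RNAs, so that the highest control lay above the lowest mutant. Within each array the mutant was the higher, by 0.41, 0.11, 0.30 and 0.21. The limma log2 ratio was 0.26 with an SE of 0.05 and an adjusted p of 0.0131. Without array 1 the adjusted p was 0.094 and without array 3 it was 0.0523.

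Crabp1, the cytoplasmic binding protein of retinoic acid, was a bright probe in every RNA. Its log2 level ran from 15.1 to 15.2 in the control and from 14.9 to 15.2 in the mutant RNAs, and the groups overlapped. The log2 ratio was -0.07 ± 0.13 (SD, n = 4 arrays; limma adjusted p = 0.393), with a 95% interval from -0.20 to 0.05. None of its spots was saturated.

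The genes whose levels over the 8 RNAs were most like those of Aldh1a2, among 17232 others well above background in all RNAs, were Cldn8, a claudin of tight junctions (Pearson r = 0.998), Plbd1, a phospholipase-like gene (r = 0.996), and Gcnt1, a glycosyltransferase gene (r = 0.995). Their changes were smaller, with log2 ratios of -0.85, -0.96 and -0.48. These 8 levels come as 4 array pairs and fall into 2 genotypes, which alone gives a high correlation, so r is a description.

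The remaining pathway was read from a list of 41 other genes of retinoid uptake, storage, oxidation, transport and reception. Of 28 tested, 2 rose and 5 fell, a share near the 23.6% called over all genes, with a median log2 ratio of -0.02. Stra6, the membrane receptor for retinol-binding protein, fell by 0.41 on the log2 scale (SD 0.19 over 4 arrays), and Stra6l, its relative, by 0.49 (SD 0.13). With scanner software ratios Stra6l had -0.94. Crabp2 and Fabp5, which carry retinoic acid to nuclear receptors, fell slightly, with -0.26 ± 0.04 and -0.24 ± 0.09. Both calls were lost without array 1 (limma adjusted p = 0.0838 and 0.0679) and without array 3 (0.0512 and 0.114). Rxrg, a receptor partner, fell too, with -0.36 ± 0.13 by the brighter probe and -0.87 by the dimmer one.

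Of the receptors, Rarg rose, with 0.34 ± 0.10 (SD, n = 4 arrays), and Rara had -0.19 (limma adjusted p = 0.097), Rxra -0.01 and Rxrb 0.04. The other retinol dehydrogenase genes tested, Rdh5, Rdh9, Rdh11, Rdh12, Rdh13 and Rdh14, did not pass and had log2 ratios from -0.15 to 0.05. Lrat, Rpe65, Bco1, Adh1, Adh7, Dhrs9 and Ttr were above background in no channel.

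A second list held 12 genes reported to respond to retinoic acid in some tissue, of which 10 were tested. Of these 4 rose and 3 fell, where 13.5% and 10.1% of all genes did, and their median log2 ratio was 0.12. The list was chosen with results of these arrays known. It does not give the direction in which each gene responds to retinoic acid, so these counts and the median do not measure a response. Tbx1, a T-box gene of the otocyst, fell with -1.39 ± 0.16 (SD, n = 4 arrays), Dkk1, a Wnt antagonist, with -1.07 ± 0.16, and Cdx1, a homeobox gene, with -0.74 ± 0.17. Foxc1, a forkhead gene, rose with 0.93 ± 0.09; it is also on the periotic mesenchyme list, of which 9 of 12 rose. Tgm2, a transglutaminase, rose with 0.36 ± 0.16 (0.19 with its other kept probe, limma adjusted p = 0.0503), Rarres2, which encodes chemerin, with 0.26 ± 0.13, and Meis2, a homeobox gene, with 0.25 ± 0.09. Rarres2 missed the threshold without array 1 (limma adjusted p = 0.107), and Meis2 without array 1, 3 or 4 (0.064, 0.12 and 0.0542). Fgf3, a growth factor gene of the hindbrain and ear, had 0.28 (limma adjusted p = 0.0602), and Hoxb1 and Stra8 were above background in no channel. Without array 1, the calls in both lists together dropped from 14 to 9.

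**Figure D4:**
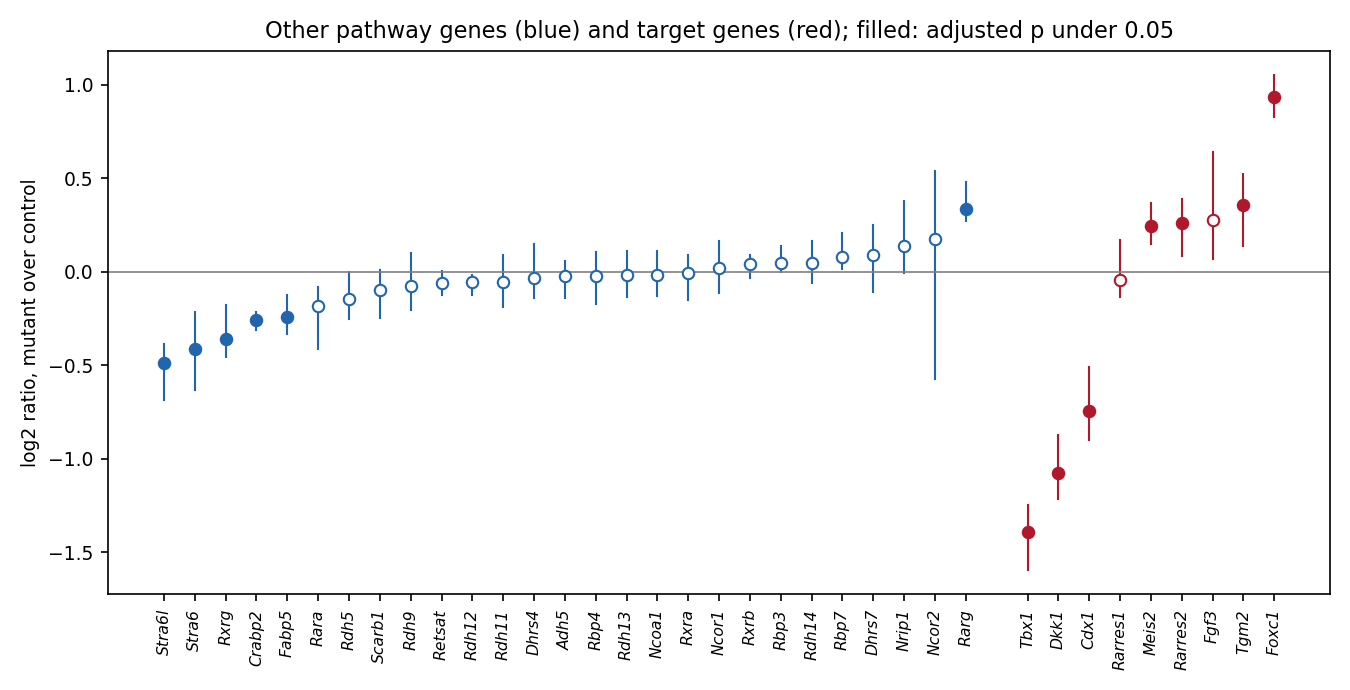
Limma log2 ratio of mutant over control (y axis) for tested genes of the wider pathway (blue) and tested target genes (red), without the genes not reported here; vertical lines run from the lowest to the highest of 4 arrays, and filled points passed a limma adjusted p of 0.05. Most blue points lie near 0, with Stra6l lowest at -0.49 and Rarg highest at 0.34, while the red points run from Tbx1 at -1.39 to Foxc1 at 0.93.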

How the data were processed

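Otocyst RNA was measured on 4 Agilent 2-colour arrays of 1 slide. Spot and background intensities, log10 ratios and spot flags were deposited by the authors and, per the file headers, came from Agilent's Feature Extraction software, version 10.7.3.1. The authors also deposited a table of the series with signed fold values. Turned to log2 they correlated with the scanner's mutant over control ratios at 0.935 to 0.975. On each array 90.9% to 93.3% of them lay within 0.001 of the scanner's ratio, so for most probes the table is not a separate processing. No source used here says how the values were made.

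Signals were corrected with normexp (offset 50), and ratios by within-array loess with control spots at weight 0 (limma 3.58.1, R 4.3.3). Non-uniform spots, 21 to 32 per array, were left out. A probe was kept if one of the RNAs, mutant or control, was well above background in 3 or more arrays (23186 of 39429), and the brightest probe stood for a gene. lmFit and eBayes were fitted with genotype and dye terms, and p-values adjusted by Benjamini-Hochberg over 18416 genes. Each array pairs a mutant with a control, so pairing is part of the ratio. Symbols came from RefSeq accessions for 26412 probes, symbols for 3854 and synonyms for 735; 8428 kept the file's name.

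The 10 genes, the lists and the tests were chosen with earlier results of these data known. Named genes were the 10, all wider pathway genes past the threshold, and the 3 most correlated with Aldh1a2; others named were chosen after their values were seen. Single values of some list genes are not reported here. The fit was tested on simulated data. Alternatives covered background, normalization, filter, dye, sex, weights, moderation, probe rule, outlier spots, deposited ratios and leaving out each array; those for the wider pathway and for differences within a family were added after seeing the data.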

Additional observations from a re-analysis of the deposited data

Results flagged for a closer look

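The log2 ratio of Aldh1a3 on array 3, 1.07, stood apart from 0.38, 0.36 and 0.30 on arrays 1, 2 and 4. The gap to the nearest array took up 0.888 of the whole range, past Dixon's 95% limit for 4 values. Among 24 genes looked at in this way, 10 retinoic acid genes and 14 of the wider pathway, it was the 1 gene past that limit, and chance alone passes about 1 in 20. In the authors' deposited table it was 1.19 on array 3, against 0.43, 0.42 and 0.31.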

How the results depend on the processing

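Over 17 alternatives the 10 genes gave 170 log2 ratios, of which 0 changed sign and 159 stayed on the same side of the threshold. The filter, dye, sex, weight, moderation and outlier settings left these log2 ratios as they were, so they say nothing about the sign. Scanner and series ratios gave identical log2 ratios for the 10 genes and are not separate checks. The number of genes called ranged from 6 to 8. Aldh1a2, Aldh1a3, Rdh10, Cyp26b1 and Cyp26c1 were called under each of the 17, and Cyp26a1 and Crabp1 under none. Calls were lost for Aldh1a1 (without array 3) and Dhrs3 (without array 1 or 3). Rarb was called under 8, among them median centring (limma adjusted p = 0.0172), no dye term (0.0254) and a sex term (0.00119), with log2 ratios from -0.55 to -0.22 over all 17. Leaving out each array in turn gave 1560 to 2492 genes higher (2485 with all arrays), 1026 to 1785 lower (1868) and 9 to 14 calls in the wider pathway (14); the fits to 3 arrays have 1 fewer residual degree of freedom. With scanner or series ratios the Cyp26b1 and Cyp26c1 difference was 2.64. The median of all genes moved by less than 0.02. Over the alternatives Cyp26c1 ranged from -1.55 to -1.08, Aldh1a2 from -3.50 to -2.89, Aldh1a3 from 0.36 to 0.70 and Stra6l from -0.94 to -0.42.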
